A study of Mus musculus with 8 samples.

Results

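The clustered histone genes were taken as every gene whose array name begins with Hist1h, Hist2h, Hist3h or Hist4h on probes that are not controls, and each gene was represented by its brightest probe over the 8 arrays. The rule found 49 genes on 55 probes, of 34844 names on 55681 probes. By name they were 6 H1, 14 H2A, 12 H2B, 8 H3 and 9 H4 genes. Hist1 on chromosome 13 held 36 of them, Hist2 on chromosome 3 held 9, Hist3 on chromosome 11 held 3 and Hist4 on chromosome 6 held 1.

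Core histones H2A, H2B, H3 and H4 form the protein spool around which DNA is wound, and the linker histone H1 binds where DNA enters and leaves it. Most genes of the clusters are transcribed in S phase, when new DNA must be packaged, and their mRNAs end in a stem-loop bound by SLBP in place of a poly(A) tail. Some clustered genes also give polyadenylated mRNA, and macrophages that leave the cell cycle make little of the stem-loop form. Y RNAs, small noncoding partners of the proteins Ro60 and La, have been linked to the initiation of DNA replication and to histone mRNA 3′ processing.

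Bone marrow-derived macrophages, which are grown in culture from bone marrow precursors, came from 4 male C57BL/6J mice. Per the design, cells of each mouse were studied under a control siRNA and under siRNA against the Y RNA terminal loop, giving 2 groups of 4 arrays. The labels of the second group name siRNAs in the plural, called the Y RNA siRNA here. No other treatment or genotype is named in the labels, and siRNA sequence, dose and time were not stated in them. The replicate numbers are used as mouse 1 to mouse 4.

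Total RNA was labelled with Cy3 by Agilent's low-input QuickAmp kit, which primes from poly(A) tails, and read on 1-colour arrays. A level is the log2 signal minus the array's 75th percentile, and a difference is taken as Y RNA siRNA minus control siRNA. The arrays held 0 probes named as a Y RNA, so the knockdown itself could not be checked. The share of spots well above background was 48.7% to 50.7%. All 9 macrophage markers were well above background on all 8 arrays, with summed levels of 1509 to 1757 in controls and 1498 to 1761 with the Y RNA siRNA. Of the markers of other cell types, 5 of 10 for neutrophils were above background on all 8 arrays, as were 3 of 9 for lymphocytes, 2 of 7 for dendritic cells, 2 of 9 for erythroid cells and megakaryocytes, 3 of 8 for fibroblasts and 2 of 6 for mast cells and basophils. The highest levels in controls were 6.54 for Siglech (dendritic cells), 6.31 for Pf4 (megakaryocytes), 1.91 for Elane (neutrophils), 0.34 for Cd79b (lymphocytes) and 0.07 for Col1a2 (fibroblasts), while Ly6g and Prtn3 (neutrophils), Cd3d and Ms4a1 (lymphocytes) and Klf1 (erythroid cells) were above background on 0 arrays. Summed levels, controls first and Y RNA arrays second, were 4.68 to 6.63 and 5.01 to 6.40 for neutrophils, 1.52 to 3.04 and 2.57 to 3.00 for lymphocytes, 93.6 to 104.3 and 89.9 to 98.0 for dendritic cells, 52.5 to 104.3 and 61.3 to 93.4 for erythroid cells and megakaryocytes, 0.842 to 2.97 and 1.15 to 3.05 for fibroblasts, and 0.712 to 1.00 and 0.721 to 1.32 for mast cells and basophils. The part of other cell types in the histone levels was not tested. Control replicate 4 had an RNA integrity number of 8 and the other 7 samples had 10. Slide columns 1 and 3 held the Y RNA arrays, while columns 2 and 4 held the controls, and the effect of column cannot be told apart from that of the siRNA. All p-values rest on these 4 mice.

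Several probes carry the stem-loop itself, and these are shown because this structure sets the replication-dependent histone mRNAs apart from other mRNAs. A search of the probe strand for a 6-base stem starting with GG, a 4-base loop and the matching stem found it in 6 of the 55 histone probes and in 44 of all 55681 probes, or 0.079%. The exact run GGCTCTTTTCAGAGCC stood in 4 probes of the array, all of them histone probes. The stems are in capitals, and letters are those of the probes in the deposited files.
Hist1h3a: caaaGGCTCTtttcAGAGCCaca
Hist1h3g: taaaGGCTCTtcttAGAGCCaccca
Hist1h3i: aaaaGGCTCTtttcAGAGCCccctc
Hist1h4m: taaaGGCCCTtttcAGGGCCatccaa
Hist2h2aa1: aaaaGGCTCTtttcAGAGCCacccact
Hist2h2bb: aaaaGGCTCTtttcAGAGCCacttta
The stem of Hist1h4m and the loop of Hist1h3g differ from the others. Of these genes, 5 were bright enough to test, and their median difference was -0.17, with 4 of 5 lower. A near copy is a probe that shared at least 48 of 60 bases with another histone probe. Over the 34 tested genes whose probe had neither this structure nor a near copy, the median was -0.08 and 28 were lower. These 34 probes are not all specific to 1 gene: that of Hist1h2ag matched another in 46 bases, and that of Hist1h4k lists 4 RefSeq transcripts. Of all genes tested, 47.8% were lower. Within mice 1 to 4 the median of the 5 genes was 0.02, -0.46, -0.44 and 0.14. For the 34 genes it was 0.09, -0.25, -0.10 and 0.11, and the sets were not tested against each other.

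The H2A probes show how far one array probe can stand for one gene. Probes of 5 H2A genes shared at least 48 of their 60 bases with the probe of another histone gene, and probes of 14 histone genes were annotated with more than 1 RefSeq transcript. Each of the 5 ends on a stop codon. Capitals mark bases that differ from the probe of Hist1h2ah or lie outside the stretch aligned to it.
Hist1h2ah: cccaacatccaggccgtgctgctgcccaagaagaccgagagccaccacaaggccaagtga
Hist1h2af: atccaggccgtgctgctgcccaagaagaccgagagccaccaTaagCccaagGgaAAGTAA
Hist1h2ak: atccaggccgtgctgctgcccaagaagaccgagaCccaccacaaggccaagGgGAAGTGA
Hist1h2an: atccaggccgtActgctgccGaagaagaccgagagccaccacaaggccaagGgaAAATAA
Hist2h2aa2: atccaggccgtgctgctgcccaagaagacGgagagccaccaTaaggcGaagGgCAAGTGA
Within the 54 aligned bases, 49 to 51 matched. A signal on one of these probes may therefore come from several H2A genes, and which gene gave it is uncertain. The probes of Hist1h4c, Hist1h4d, Hist1h4j and Hist1h4k list 2 to 4 RefSeq transcripts, so H4 genes counted below may not be separate signals either.

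The siRNA comparison asked whether histone mRNA levels moved with the Y RNA siRNA. Of the 49 genes, 44 had a probe well above background on 4 or more arrays and were tested, among 19145 genes in all. Most histone differences were small and negative, but no gene passed the test. The difference was below 0 for 37 of 44 genes, or 84.1%, against 47.8% of all genes tested. The median difference was -0.08, against 0.0045 over all genes, and single genes ran up to 0.50 for Hist3h2ba. Hist1h2ac passed the filter on dim probes through its control arrays alone, and of the other 43 genes 36 were lower, with -0.39 for Hist1h4m the lowest value. In limma, 0 of 44 had an adjusted p under 0.05, as did 0 of all 19145 genes (0%). At an unadjusted p under 0.05 there were 2 histone genes, and 1 without Hist1h2ac, against 3.41% of all genes. With the mouse as a fixed block 0 histone genes passed, with 5 at an unadjusted p under 0.05, and 4 without Hist1h2ac, against 9.31% of all genes. With the mouse as a random block 0 histone genes passed, against 0.0575% of all genes (11 genes).

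The negative sign was not shared by the mice. In mice 1 and 4, 29 and 30 of 44 histone genes were higher with the Y RNA siRNA, while in mice 2 and 3 only 11 and 11 were. The median difference was 0.09 in mouse 1, -0.32 in mouse 2, -0.14 in mouse 3 and 0.11 in mouse 4. Leaving out both arrays of mouse 2 took the number of lower genes from 37 to 22 of 44, and leaving out control replicate 4 alone took it to 32. Only 6 of 44 genes, or 13.6%, moved the same way in all 4 mice, with 3 higher and 3 lower, against 19.3% of all genes (10.5% higher and 8.86% lower). The levels of the groups overlapped for all 44 genes, while 1.34% of all genes lay wholly higher and 1.09% wholly lower with the Y RNA siRNA. A 2-fold change lay outside the 95% interval of the difference for 42 of 44 histone genes, against 95.6% of all genes. A 1.5-fold change lay outside it for 27 of 44, against 84.7%. These intervals are from the fit without the mouse block, so the spread between mice is part of their width. Fewer cells in S phase and less histone mRNA per cell cannot be told apart in bulk RNA. Because the labelling primes from poly(A) tails, a level here is not a measure of all histone mRNA. A shift between tailed and stem-loop forms cannot be told apart from these either.

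**Figure D1:**
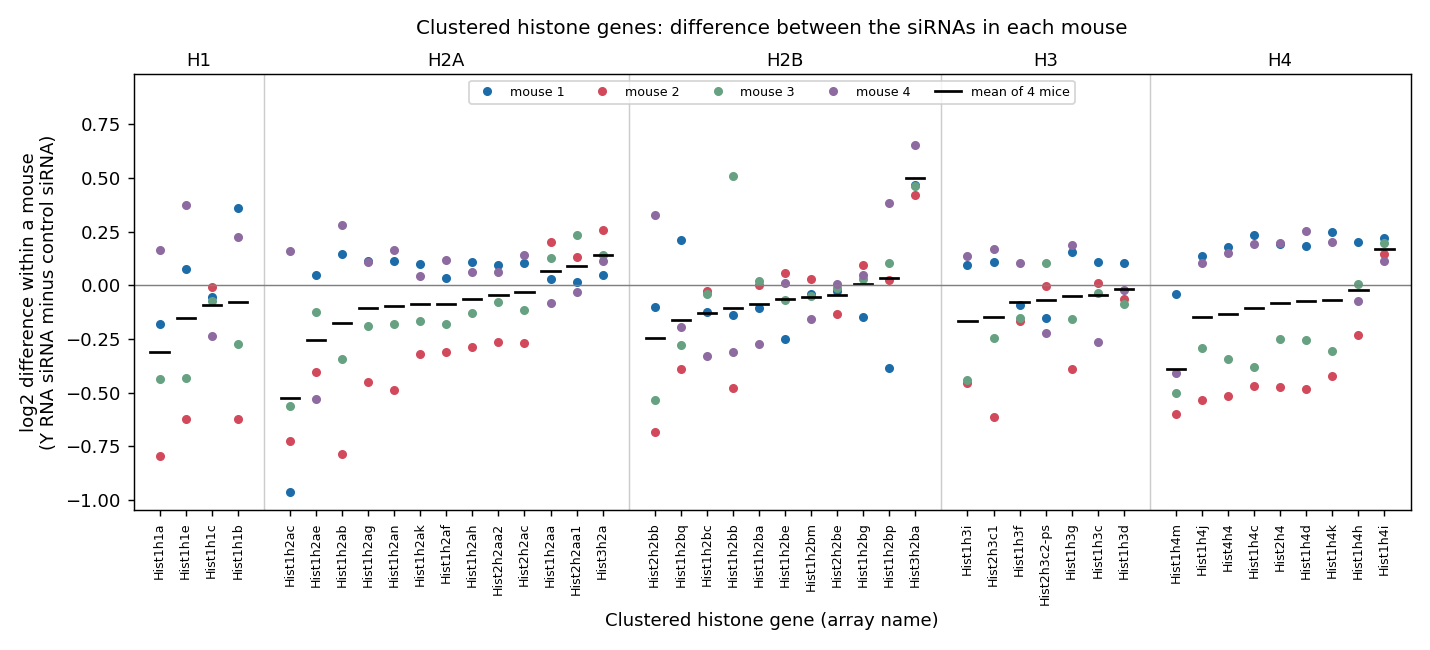
Log2 difference between the Y RNA siRNA and the control siRNA within each mouse (y axis) for the 44 tested histone genes (x axis), ordered by mean difference within each histone group. Points are single mice and bars the mean of 4 mice; most bars lie just below 0 while mice 2 and 3 fall mainly below and mice 1 and 4 mainly above, and Hist3h2ba is above 0 in every mouse.

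The linker histones H1 were lower in mean for 4 of 4 tested genes, with a median difference of -0.12. Hist1h1a, the H1.1 gene, had levels of -2.09, -1.88, -1.51 and -2.72 in the controls of mice 1 to 4 and of -2.28, -2.67, -1.95 and -2.56 with the Y RNA siRNA. Control replicate 4 was the lowest of all 8 arrays and the groups overlapped. Hist1h1b, the H1.5 gene, went from 2.51 ± 0.55 (SD, n = 4) to 2.43 ± 0.26 (SD, n = 4). Hist1h1c, the H1.2 gene, is known to give polyadenylated mRNA as well, and its levels were 3.57 ± 0.11 and 3.47 ± 0.08 (SD, n = 4 each). It was lower in 4 of 4 mice, with a difference of -0.09 ± 0.07 (SE). Hist1h1d was above background on 0 arrays, and the testis-type Hist1h1t on 2 control arrays and 0 Y RNA arrays, so neither was tested.

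Among the H2A genes, 10 of 13 were lower, with a median difference of -0.09. The 2 brightest probes were those of Hist1h2ah, at 8.17 ± 0.22 without and 8.11 ± 0.15 under the Y RNA siRNA, and Hist1h2af, at 8.03 ± 0.23 and 7.94 ± 0.12 (SD, n = 4 each). Both belong to the sequences aligned above, and all 5 of those genes were higher in mice 1 and 4 and lower in mice 2 and 3. Hist1h2ac was a dim gene with levels of -3.81, -3.86, -4.32 and -4.11 in controls and -4.77, -4.58, -4.89 and -3.95 with the Y RNA siRNA. It was lower in mice 1 to 3 and higher in mouse 4. Its probe was well above background on 4 control arrays and on 1 Y RNA array, so the lower levels are near the limit of measurement. It was kept for testing by the controls, where it was higher, so no test of its difference is given.

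Hist1h2ae, another replication-dependent H2A gene, had a difference of -0.25 ± 0.12 (SE) and was lower in 3 of 4 mice. The difference ran from -0.35 to -0.05 over the alternatives described below. Its lowest value within a mouse was -0.53 in mouse 4, where control replicate 4 was the highest array, at -2.31. Hist1h2ae shares its promoter with the H2B gene Hist1h2bg, which is read in the other direction and had a difference of 0.01 ± 0.10 (SE). Among histone genes with start sites within 250 bases, the other such pair was Hist1h2an and Hist1h2bp, with differences of -0.10 and 0.03. Hist1h2ba and Hist1h2aa, also read away from each other, start further apart with overlapping stretches before their start sites. They had differences of -0.09 and 0.07. Within no pair was one gene tested against the other. The stretch between the start sites of Hist1h2ae and Hist1h2bg is shown because it holds all 3 of the motifs searched. It covers chr13:23571221-23571399 (RefSeq, GRCm38.p6, plus strand), with the CCAAT letters, the TATAAA letters and the octamer ATTTGCAT in either orientation in capitals.
Hist1h2ae and Hist1h2bg: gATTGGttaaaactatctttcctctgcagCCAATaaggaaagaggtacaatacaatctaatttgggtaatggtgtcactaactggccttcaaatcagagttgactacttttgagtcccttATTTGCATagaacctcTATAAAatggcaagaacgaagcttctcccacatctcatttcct
These 3 motifs were searched on both strands in the 250 bases before each start site. RefSeq listed 44 promoters for 43 of the histone genes. CCAAT, the letters bound by NF-Y, stood in 81.8% of them against 33.8% of 32851 promoters of all genes. TATAAA, the core of the TATA box, stood in 50% against 12.4%. ATTTGCAT, the octamer bound by Oct-1, stood in 29.5% against 1.6%, in 7 of 14 H2A and 6 of 10 H2B promoters and in 0 of the H1, H3 and H4 promoters. Of the H4 promoters, 2 of 8 held CCAAT. A match is a run of letters and was not tested as a binding site.

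Of the H2B genes 8 of 11 were lower, with a median difference of -0.06, which became 0.0036 without control replicate 4. Within mice 1 to 4 the H2B median was -0.10, 0.00, -0.01 and 0.00. The brightest probes were those of Hist1h2bc, at 5.38 ± 0.17 and 5.25 ± 0.04, and Hist1h2bm, at 4.40 ± 0.14 and 4.35 ± 0.09 (SD, n = 4 each). Hist1h2bc, a gene also known for polyadenylated mRNA, was lower in 4 of 4 mice by 0.03 to 0.33. Hist1h2bq ranged widely between mice, from -2.69 on the Y RNA array of mouse 1 to -4.05 on that of mouse 3.

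Hist3h2ba (now H2bu2, probe at chr11:58762964-58763023, mm9) had the smallest unadjusted p of the histone genes. Its levels were -2.42, -2.85, -3.0 and -2.92 in the controls of mice 1 to 4 and -1.95, -2.43, -2.54 and -2.27 with the Y RNA siRNA. Every mouse was higher with the Y RNA siRNA, by 0.47, 0.42, 0.46 and 0.65, but the control of mouse 1 lay above the Y RNA arrays of mice 2 and 3. The mean difference was 0.50 ± 0.16 (SE), or 1.41-fold, with an unadjusted p of 0.0156 and an adjusted p of 1.00 in limma. A fixed mouse block in limma gave an unadjusted p of 0.000276 and an adjusted p of 0.202, and a random one an adjusted p of 0.138. The difference was 0.25 when background was corrected by normexp, so its size depended on the correction. Its neighbour Hist3h2a (now H2aw) went from 4.36 ± 0.26 to 4.50 ± 0.20 (SD, n = 4 each), also higher in 4 of 4 mice, by 0.05 to 0.26.

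The Hist3h2ba promoter, chr11:58948661-58948910 (RefSeq, GRCm38.p6, plus strand), is shown as that of the gene with the smallest p, with the same motifs in capitals.
Hist3h2ba: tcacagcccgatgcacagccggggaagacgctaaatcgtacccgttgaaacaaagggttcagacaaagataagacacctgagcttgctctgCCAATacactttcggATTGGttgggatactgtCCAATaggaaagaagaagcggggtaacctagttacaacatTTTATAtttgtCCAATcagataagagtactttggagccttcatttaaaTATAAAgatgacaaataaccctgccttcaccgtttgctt
It holds CCAAT 4 times and TATAAA 2 times, counting both strands, and no ATTTGCAT in this window.

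The H3 genes were lower in mean for 7 of 7, with a median difference of -0.07 and single values from -0.17 to -0.02. Hist1h3d, the brightest, went from 5.76 ± 0.10 to 5.75 ± 0.05 (SD, n = 4 each). Hist2h3c1 went from 1.27 ± 0.37 to 1.13 ± 0.24 and Hist1h3i from -2.91 ± 0.47 to -3.08 ± 0.37 (SD, n = 4 each). Hist1h3f had levels of -2.58 ± 0.27 and -2.65 ± 0.17 (SD, n = 4 each). In each of these last 3 genes control replicate 4 was the lowest array, and the groups overlapped.

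Of the H4 genes 8 of 9 were lower, with a median difference of -0.08. The H4 median was 0.19 in mouse 1, -0.47 in mouse 2, -0.29 in mouse 3 and 0.15 in mouse 4. Hist2h4 had levels of 5.42, 5.40, 5.50 and 4.66 in controls and 5.61, 4.93, 5.25 and 4.86 with the Y RNA siRNA. Hist1h4k had 5.44, 5.40, 5.61 and 4.70 in controls and 5.69, 4.97, 5.31 and 4.90 with the Y RNA siRNA. In both genes the arrays of mouse 4 and the Y RNA array of mouse 2 were low. Hist1h4j followed with 0.13 ± 0.41 and -0.02 ± 0.41, and Hist1h4m with -3.61 ± 0.48 and -4.0 ± 0.41 (SD, n = 4 each). Hist1h4m was lower in 4 of 4 mice, with differences of -0.04, -0.60, -0.50 and -0.41 in mice 1 to 4. It is a dim gene, though well above background on 4 control and 4 Y RNA arrays. Its mean difference ran from -0.58 to -0.16 over the alternatives described below.

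Hist1h4i did not follow this pattern. Its levels were 1.91, 1.94, 1.73 and 1.97 in controls and 2.13, 2.08, 1.92 and 2.08 with the Y RNA siRNA, higher in 4 of 4 mice although the groups overlapped. The difference was 0.17 ± 0.07 (SE), with an unadjusted p of 0.0538 in limma, and of 0.00783 in the fit with a fixed mouse block, where the adjusted p was 0.387. Its other probes differed by 0.05 and 0.10. The probe used carries 0 RefSeq transcripts in its annotation, so its place in the gene is uncertain.

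The median range over the 8 arrays was 0.66 for histone genes and 0.40 for all genes. It was 1.15 for H1, 0.99 for H4, 0.59 for H2A, 0.58 for H3 and 0.57 for H2B. The lowest of the 8 arrays was control replicate 4, the sample with the RNA integrity number of 8, for 20 of 44 histone genes, against 8.43% of all genes. These were 3 of 4 H1, 7 of 13 H2A, 1 of 11 H2B, 3 of 7 H3 and 6 of 9 H4 genes. On the same array the mitosis and cell cycle list had a median of -0.31 relative to each gene's mean, with 17 of 45 genes lowest there, and the DNA replication list had -0.24, with 5 of 58. The part of RNA integrity or of the cell cycle in this was not tested. The Y RNA array of mouse 4, with an integrity number of 10, was also low for H1 and H4, at medians of -0.31 and -0.35 relative to each gene's mean, beside -0.53 and -0.55 on control replicate 4.

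**Figure D2:**
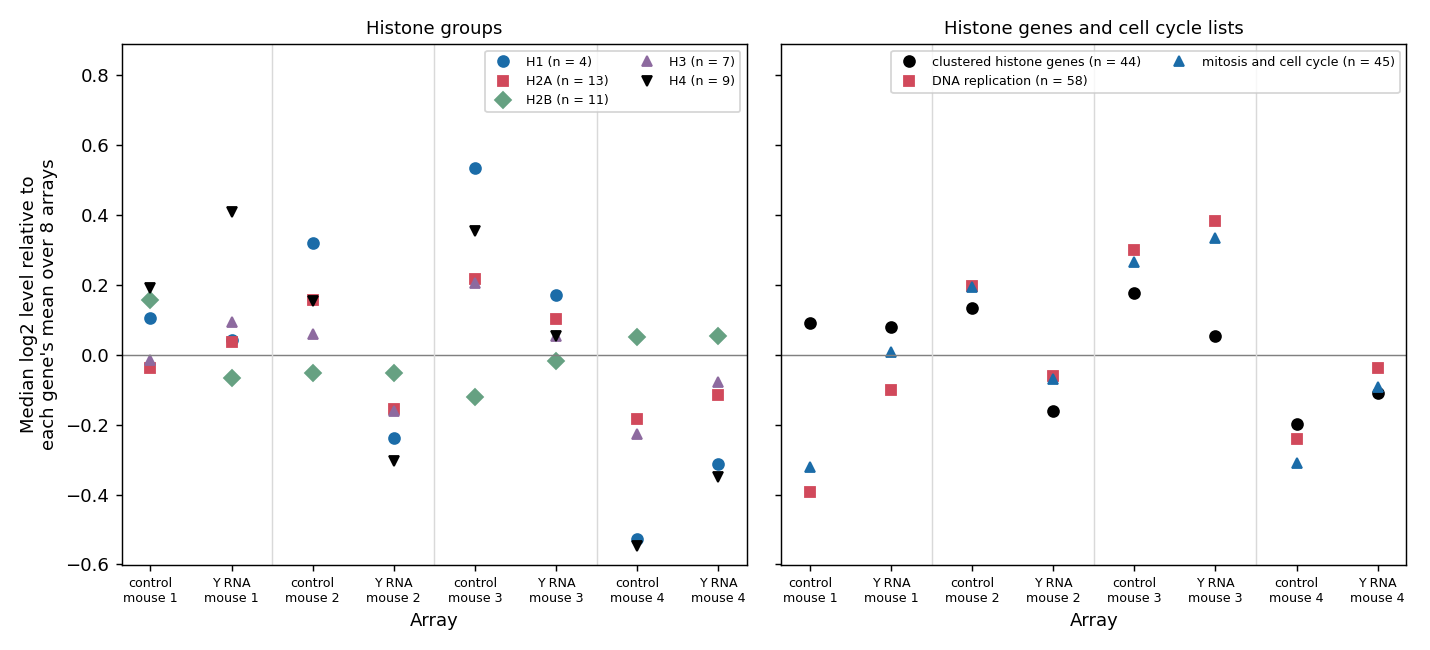
Median log2 level relative to each gene's mean over the 8 arrays (y axis) on each array (x axis, both arrays of a mouse side by side), for the 5 histone groups (left) and for all histone genes and 2 cell cycle lists (right). H1 and H4 are lowest on control replicate 4, at -0.53 and -0.55, while H2B stays within 0.16 of 0; on the arrays of mouse 1 the DNA replication list is low while the histone median is above 0.

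Differences between mice were tested with the siRNA group in the model. In limma, 2 of 44 histone genes had an adjusted p under 0.05 for the mouse terms, against 4.72% of all genes. At an unadjusted p under 0.05 there were 19 of 44, against 29.8% of all genes, and they included 7 of 9 H4 genes. Slide row 1 held mice 1 and 2 and row 2 the other mice. Columns 3 and 4 held mice 1 and 3, and columns 1 and 2 held mice 2 and 4. Each mouse thus had its own block of the slide, and mouse and slide position cannot be told apart in this test.

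Hist2h2be, an H2B gene known for polyadenylated mRNA in cells that have stopped dividing, had levels of 0.45, 0.05, -0.11 and 0.09 in the controls of mice 1 to 4 and 0.42, -0.09, -0.12 and 0.09 with the Y RNA siRNA. Both arrays of mouse 1 lay above the other 6. The highest and lowest mouse differed 1.46-fold, with an adjusted p of 0.0381 in limma. Hist1h2aa, an H2A gene known from the testis, had -0.72, -1.41, -1.44 and -1.12 in controls and -0.70, -1.21, -1.32 and -1.20 with the Y RNA siRNA. Mouse 1 was again the highest, by up to 1.59-fold, with an adjusted p of 0.0471 in limma. The 75th percentile subtracted was 9.04 on both arrays of mouse 1 and 9.19 to 9.34 on the other 6. The part of these dimmer arrays in the 2 calls was not tested. Neither call held when any single array was left out, nor when both arrays of mouse 1, 3 or 4 were left out. Without both arrays of mouse 2 the adjusted p was 0.0393 for Hist2h2be and 0.0475 for Hist1h2aa. Hist3h2a, Hist3h2ba and Hist1h2bq were just outside the threshold, at adjusted p of 0.0556, 0.0542 and 0.0533 in limma.

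**Figure D3:**
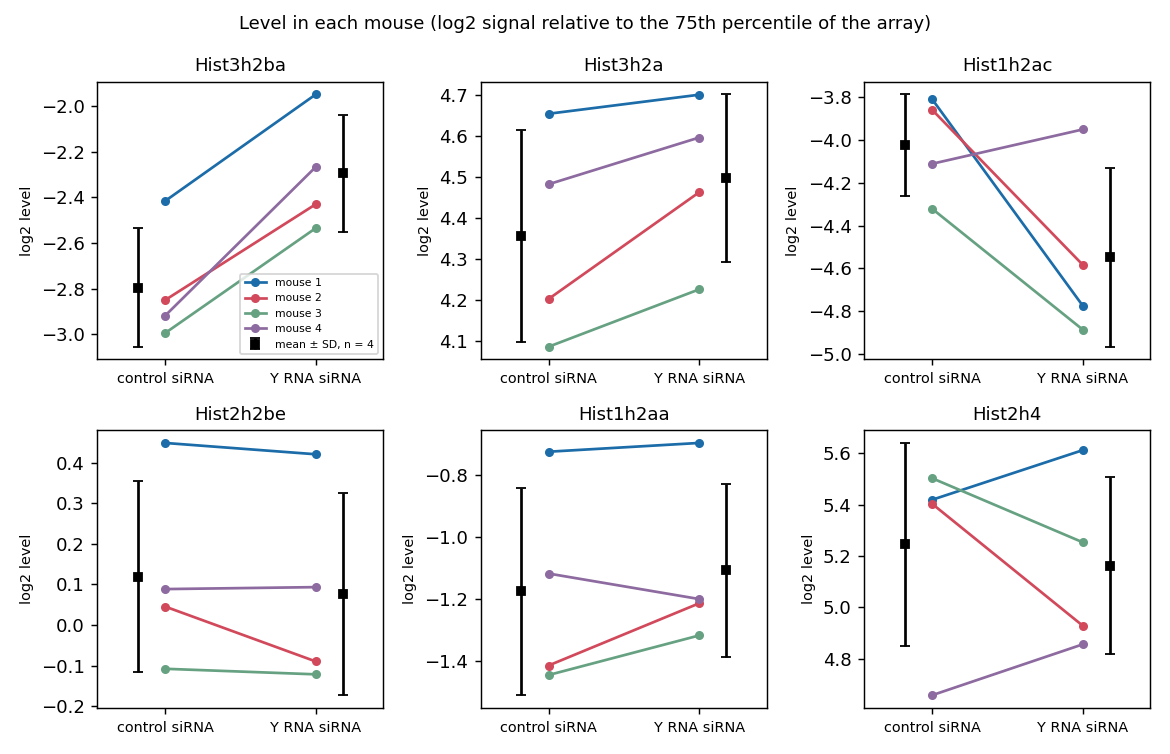
Log2 signal minus the array's 75th percentile (y axis) in the control and Y RNA siRNA arrays (x axis) of 6 histone genes. Lines join the arrays of one mouse and squares give the mean ± SD of 4 mice; Hist3h2ba and Hist3h2a are higher in 4 of 4 mice, Hist2h2be and Hist1h2aa are highest in mouse 1, and Hist2h4 is lowest on control replicate 4.

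Genes that act on histone mRNA and histone protein showed no passing change either. Of the list for histone mRNA synthesis and 3′ processing, 31 genes were tested, 23 higher and 8 lower, with a median difference of 0.02 and 0 past the threshold in limma. Slbp, the stem-loop binding protein, differed by 0.15 ± 0.13, Zfp473, the ZFP100 component of U7 snRNP, by 0.23 ± 0.14, and Sympk, the scaffold symplekin, by -0.11 ± 0.07 (SE). Cpsf4 differed by 0.06 ± 0.05 (SE). For the mouse terms, Mif4gd, an SLBP partner in histone mRNA translation, was the only gene of this list past the threshold, with an adjusted p of 0.0359 in limma. That is 3.23% of the list, against 4.72% of all genes. Snrpd3 and Ccne1, which encodes cyclin E1, had adjusted p of 0.0666 and 0.0709.

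Among 27 histone chaperone and import genes, 16 were higher, with a median of 0.0033 and 0 past the threshold in limma. Hira, which deposits the replacement histone H3.3, differed by -0.16 ± 0.08 and Hjurp, the chaperone of the centromeric histone CENP-A, by 0.30 ± 0.22 (SE). Asf1a differed by 0.14 ± 0.11 and Rbbp4 by -0.09 ± 0.08 (SE). For the mouse terms Supt16h, Set, Chaf1b and Tonsl had the smallest p, and 0 passed. Of 14 replacement variant genes outside the clusters, 8 were higher, with a median of 0.03 and 0 past the threshold. H2afj differed by -0.08 ± 0.08, H1fx by 0.10 ± 0.11, H1f0 by -0.14 ± 0.15 and H2afv by 0.05 ± 0.06 (SE). H2afz and H2afx differed between the siRNAs by 0.03 and 0.11. The smallest p for the mouse terms were those of H1fx, 1700014N06Rik, H2afx and H2afz, and 0 genes of this list passed in that test.

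The DNA replication list had the opposite sign to the histone genes. Of its 58 tested genes 49 were higher, with a median difference of 0.08 and 0 past the threshold in limma. Rfc2, a clamp loader subunit, differed by 0.10 ± 0.05, Orc4 by -0.10 ± 0.06, Wdhd1 by 0.19 ± 0.12 and Mcmbp by -0.07 ± 0.05 (SE). Of 45 mitosis and cell cycle genes, 39 were higher, with a median of 0.06 and 0 past the threshold. Cenpf, a kinetochore protein, differed by -0.65 ± 0.22 (SE), with an unadjusted p of 0.0178, and Nek2 by 0.19, Ncaph by 0.17 and Cdc20 by -0.13.

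Within mice 1 to 4 the replication median was 0.27, -0.25, 0.08 and 0.20, beside 0.09, -0.32, -0.14 and 0.11 for histone genes, so that the signs differed in mouse 3. In mouse 1 the replication list was at -0.39 on the control array and -0.10 on the Y RNA array relative to each gene's mean, while the histone median was 0.09 and 0.08. On the other controls the lists lay on the same side: in mouse 2 the histone, replication and mitosis medians were 0.13, 0.20 and 0.19, in mouse 3 they were 0.18, 0.30 and 0.27, and in mouse 4 they were -0.20, -0.24 and -0.31. Mcm2, a subunit of the replicative helicase, had mean levels of 0.36, 1.11, 1.61 and 0.72 in mice 1 to 4, and Mybl2 had 0.59, 1.54, 2.08 and 1.05. By the mean of both arrays, 49 of 58 replication genes were lowest in mouse 1 and 53 highest in mouse 3. Of the 45 mitosis and cell cycle genes, 27 were lowest in mouse 4 and 16 in mouse 1, and 43 were highest in mouse 3. Such shares were not counted over all genes. In limma 0 genes of either list passed the threshold for the mouse terms, against 4.72% of all genes. Mcm2 had an adjusted p of 0.0778 in that test. Orc6, Cdc6, Nuf2, Bub1 and Tpx2, which are among those with the smallest p for the mouse terms, were lowest in mouse 1. The part of the cell cycle in the histone levels was not tested. Trove2, which encodes Ro60, and Ssb, which encodes La, differed by 0.05 ± 0.07 and -0.02 ± 0.07 (SE), less than their standard errors.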

How the data were processed

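Per the file headers, the deposited scanner files hold linear intensity values from Agilent Feature Extraction 10.7.3.1 (protocol GE1_107_Sep09, probe positions on mm9). A value table deposited by the authors, in log2 units of unstated method and centring, served as an alternative only. Main values were log2 of the processed signal minus each array's 75th percentile, with 3671 control spots left out and spots of a probe averaged. A probe was kept if well above background on 4 or more arrays (26774 of 55681), and a gene took its brightest probe, giving 19145 genes. limma 3.58.1 in R 4.3.3 (lmFit, eBayes, two-sided) compared 4 arrays with 4, with Benjamini-Hochberg adjustment over all genes at 0.05. The intervals and standard errors given are those of this fit, which has no mouse block. The mouse terms were tested with limma's F test. Arrays correlated at 0.989 to 0.997.

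The series design gives 4 mice under both conditions. After group means were subtracted, both arrays of a mouse correlated at 0.618, 0.155, 0.582 and 0.285, and the numbers were used as pairs. The random block used a correlation of 0.534. Full values were given for, in each histone group, the 2 brightest genes, the 2 with the smallest p for the siRNA and the 2 for the mouse terms, and up to 4 genes by either p per pathway list. The histone genes, lists and rules were chosen with earlier results of these data known. Names matched RefSeq for all 49 histone genes, 47 by accession. Calculations were tested on simulated data. No sequence of the mm9 genome was used here, so exon positions of probes are not given. Alternatives covered scaling, background correction, filters, probe means, array weights, the mouse block and leaving out arrays.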

Additional observations from a re-analysis of the deposited data

Results flagged for a closer look

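In 88 groups of 4 arrays (44 genes, both siRNAs), 2 had an array far from the other 3. Chance alone gives about 1 in 20 groups. For Hist2h4 control replicate 4 was at 4.66, with the nearest control at 5.40. For Hist4h4 it was at 2.43, with the nearest control at 3.21. Both are H4 genes on the array of the sample with an RNA integrity number of 8.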

How the results depend on the processing

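Over 23 alternatives for the siRNA comparison, 0 histone genes passed in any, 0 of all genes passed when arrays were left out, and 1 gene of all passed with array weights. With the replicate block, 0 genes passed with the mouse fixed and 11 of all genes with the mouse random, 0 of them histone genes. Without leaving out arrays, 35 to 42 histone genes were lower and their median was -0.20 to -0.05. The number tested was 44, except 49 with no filter on dim probes and 43 with probes above background on 8 arrays. Having no filter added Hist1h1d, Hist1h1t, Hist1h3a, Hist2h2ab and Hist3h2bb-ps, each lower in mean with the Y RNA siRNA but too dim for the main filter. Median scaling put 34.5% of all genes lower, against 47.8%. Leaving out arrays gave 22 to 38 lower genes and medians of -0.15 to 0.0018 for all histone genes, -0.34 to -0.06 for H1, -0.15 to 0.02 for H2A, -0.084 to 0.0036 for H2B, -0.14 to -0.02 for H3 and -0.29 to 0.05 for H4. Of 23 named genes, 13 kept their sign in every alternative that tested them. For the mouse terms, 1 of 44 histone genes was called with quantile scaling, against 4.82% of all genes. With normexp 9 of 44 were called, against 17.2% (3302 genes), and with normexp and quantile 6 of 44, against 11.7% (2244 genes). The deposited table gave 6 of 44, against 9.84% (1884 genes), and array weights 6 of 44, against 9.73% (1863 genes). With no filter 0 of 49 were called, against 0.497% (173 genes). Probes above background on 8 arrays gave 5 of 43, against 6.79%. Leaving out arrays gave 0 to 3 histone calls of 44. Among all genes it gave 80 to 555 calls without 1 array, or 0.418% to 2.90%. Without both arrays of mouse 1, 2, 3 and 4 it gave 2, 1224, 162 and 334, or 0.0104%, 6.39%, 0.846% and 1.74%. The cause of these changes in number, including the smaller number of arrays, was not tested. Dim probes such as Hist1h2ac limit what signal over background can show, and 4 mice limit the precision.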
